A study of Mus musculus with 4 samples.

Results

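The Hippo pathway and Yap/Tead genes described here are *Yap1*, *Wwtr1*, *Tead1*, *Tead2*, *Tead3*, *Lats1*, *Lats2*, *Ctgf*, *Cyr61* and *Amotl2*. They were chosen by gene symbol, and all 10 were found among the 23997 genes of the deposited RNA-Seq table. The study compared 2 populations of hair cell progenitors. Lgr5+ progenitors are the EGFP+ cells of the Lgr5-EGFP-IRES-CreERT2 line, and Lgr6+ progenitors are those of the Lgr6-EGFP-IRES-CreERT2 line. Both were sorted by flow cytometry from postnatal day (P) 3 cochleae of C57BL/6 mice. In each line EGFP is driven by the gene that it reports, and the reporter cassette sits in that gene. The study places the Lgr6+ cells as a subpopulation of the Lgr5+ cells, in the inner pillar cells. The labels list 2 samples for each population, 4 in all, while the methods describe 3 fractions split from the RNA of each population, so replicates of this kind share 1 RNA extraction. The table holds 1 FPKM value, which is the number of sequenced fragments relative to the length of the transcript and the size of the library, for each gene in each population, with the replicates already combined. No spread between replicates can be calculated from it, and no difference given here has a replicate check or a *p*-value.

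The Hippo pathway is a kinase cascade that restrains growth. The kinases STK3 and STK4 activate LATS1 and LATS2, which phosphorylate the coactivators YAP1 and TAZ (the product of *Wwtr1*) and keep them out of the nucleus. Coactivators that escape phosphorylation enter the nucleus, bind TEAD transcription factors and switch on targets such as *Ctgf*, *Cyr61* and *Amotl2*. In the developing inner ear, YAP and TEAD are known for supporting the proliferation of prosensory progenitors. RNA levels do not show the phosphorylation or the location of these proteins, which were not measured here.

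Between the populations, the coactivator *Yap1*, the factor *Tead2* and the targets *Ctgf*, *Cyr61* and *Amotl2* had FPKM values 2.16 to 4.53 times as high in Lgr5+ cells as in Lgr6+ cells. The inhibitory kinases *Lats1* and *Lats2* had values 2.18 and 2.00 times as high in Lgr6+ cells. *Wwtr1*, *Tead1* and *Tead3* differed by less than 1.5-fold. The log2 change used below is log2(FPKM + 1) of the Lgr6+ cells less log2(FPKM + 1) of the Lgr5+ cells. A negative value means a higher FPKM in Lgr5+ cells, and adding 1 makes the change of weakly expressed genes look smaller. Genes that reached an FPKM of 1 in either population or in both were kept, which held for all 10 members and for 13436 genes in all. By a difference of at least 1.5-fold on this scale, 5 members were higher in Lgr5+ cells, against 23.3% of all kept genes, and 2 were higher in Lgr6+ cells, against 28.5% of all kept genes. Taking both directions, 7 of the 10 members passed this difference, against 51.8% of all kept genes. All 5 that were higher in Lgr5+ cells were so by at least 2-fold on this scale, against 11.7% of all kept genes, and 0 members were at least 2-fold higher in Lgr6+ cells, against 18.2% of all kept genes. The median log2 change of the members was -0.70, and that of all kept genes was 0.03. No set test was run, and the members were not chosen independently of these data.

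**Figure D1:**
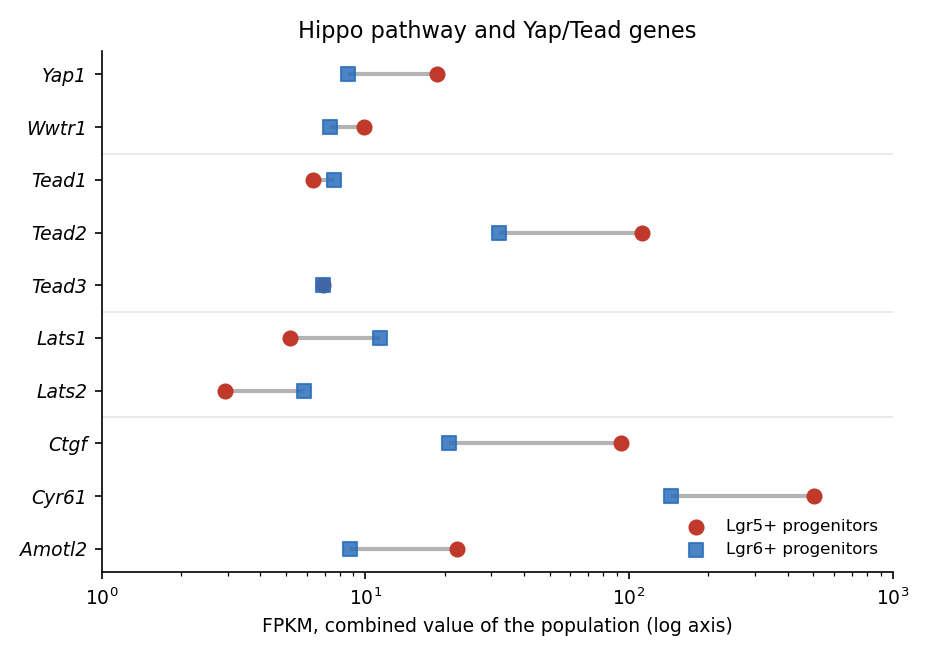
FPKM of each member in Lgr5+ cells (red circles) and Lgr6+ cells (blue squares) on a log axis, with 1 combined value per population and no error bars because values of single samples were not analysed. *Tead2*, *Ctgf* and *Cyr61* span the widest gaps, with the Lgr5+ value above, while *Lats1* and *Lats2* have the Lgr6+ value above and the *Tead3* symbols coincide at an FPKM of 6.94 and 6.93.

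The checks on the sorted populations concern the whole table. *Lgr5*, the gene behind the first sort, measured 9.65 FPKM in Lgr5+ cells and 24.99 FPKM in Lgr6+ cells, and *Lgr6* had 2.06 and 2.90, so *Lgr5* was lower in the population sorted for it. All 10 supporting cell markers were above an FPKM of 4 in both populations. Of these, 3 were at least 1.5-fold higher in Lgr5+ cells and 0 in Lgr6+ cells, against 23.3% and 28.5% of all kept genes. Their median log2 change was -0.46. The Notch effector *Hes5* had the largest difference of this list, with 505 and 91.7 FPKM, and *Sox2*, a marker of the sensory progenitors and supporting cells, had 139.6 and 54.8. Hair cell markers were present in both, and 7 of 10 were at least 1.5-fold higher in Lgr6+ cells, against 28.5% of all kept genes. Their summed FPKM was 2552 in Lgr5+ and 5358 in Lgr6+ cells, of which *Pcp4* alone made up 1337 and 3277. *Atoh1*, *Cib2* and *Espn* were under 1.5-fold. By immunostaining, the study saw no hair cell protein Myo7a in either sorted population, and Sox2 in nearly all cells. The steps of low FPKM values gave the combined Lgr6+ value a depth 3.18 times that of the combined Lgr5+ value, if a step stands for 1 fragment in each. The table does not give the depth of single libraries, and the study gives it as a range of reads over all samples without naming them. The FPKM of all genes summed to 754163 in Lgr5+ cells and to 627932 in Lgr6+ cells. When both columns were scaled to the same sum, the median log2 change of all kept genes moved from 0.03 to 0.27, and the shares of kept genes higher in Lgr6+ and in Lgr5+ cells moved to 36.9% and 16.3%. The 5 members higher in Lgr5+ cells and the 2 higher in Lgr6+ cells were the same under that scaling.

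The LATS kinases are the last kinases of the cascade and act directly on YAP1 and TAZ. *Lats1*, on chromosome 10 from 7681209 to 7716461 (this and all other gene positions are on GRCm38), measured 5.19 FPKM in Lgr5+ cells against 11.3 FPKM in Lgr6+ cells, a log2 change of 0.99. *Lats2*, on chromosome 14 from 57689662 to 57746123, measured 2.93 FPKM in Lgr5+ cells against 5.86 FPKM in Lgr6+ cells, a log2 change of 0.80. *Lats2* is also known as a target of YAP and TEAD, and it was the only member of that kind with the higher value in Lgr6+ cells. The balance between the kinases stayed close, since the ratio of *Lats1* to *Lats2* FPKM was 1.77 in Lgr5+ cells and 1.93 in Lgr6+ cells. Differences of this size were frequent among genes at this level. Of the 2407 kept genes with a mean FPKM of 5 to 10, 17.7% were at least as far toward Lgr6+ cells as *Lats1*. Of the 4319 kept genes with a mean FPKM under 5, 37.3% were at least as far as *Lats2*, and 43.2% passed 1.5-fold toward Lgr6+ cells.

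The coactivators YAP1 and TAZ are related proteins without a DNA-binding domain of their own. *Yap1*, on chromosome 9 from 7932001 to 8004596, measured 18.6 FPKM in Lgr5+ cells against 8.62 FPKM in Lgr6+ cells, a log2 change of -1.03. *Wwtr1*, on chromosome 3 from 57455644 to 57575910, measured 9.85 FPKM in Lgr5+ cells against 7.32 FPKM in Lgr6+ cells, a log2 change of -0.38, which is under 1.5-fold. *Yap1* was thus the higher coactivator in both populations, by a ratio of 1.89 to *Wwtr1* in Lgr5+ cells and of 1.18 in Lgr6+ cells. Among the 4795 kept genes with a mean FPKM of 10 to 50, 9.55% were at least as far toward Lgr5+ cells as *Yap1*.

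Ratios inside a population stay the same when its whole column is multiplied by a constant. Quantile normalization, which moves genes by their level, can change them. The summed FPKM of the coactivators was 28.5 in Lgr5+ cells and 15.9 in Lgr6+ cells, while that of the LATS kinases was 8.12 and 17.2. The coactivator RNA was therefore 3.50 times the LATS RNA in Lgr5+ cells and 0.928 times in Lgr6+ cells, a log2 difference between the populations of -1.92. *Lats1* and *Lats2* both lay below *Yap1* in Lgr5+ cells, and *Lats1* lay above it in Lgr6+ cells. Without replicates it is unknown how much of these ratios is within the spread between samples. By mean FPKM, the median log2 change of kept genes was 0.37 under 5, where *Lats2* lies, and 0.11 at 5 to 10. *Lats1* and *Wwtr1* lie in the latter range. At 10 to 50, the range of *Yap1*, the median was -0.03. The part of this trend with level in the ratio of coactivators to LATS kinases was not tested.

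The TEAD family supplies the DNA-binding partners of YAP1 and TAZ. *Tead2*, on chromosome 7 from 45215753 to 45233619, measured 112 FPKM in Lgr5+ cells against 32.2 FPKM in Lgr6+ cells, a ratio of 3.48 and a log2 change of -1.77. It ranked above 92.8% of kept genes in Lgr5+ cells and above 79.1% in Lgr6+ cells. Of the 1915 kept genes with a mean FPKM above 50, 22 were at least as far toward Lgr5+ cells as *Tead2*, or 1.15%, and the median log2 change in that range was -0.22. *Tead1*, on chromosome 7 from 112679320 to 112906805, measured 6.30 FPKM in Lgr5+ cells and 7.59 FPKM in Lgr6+ cells. *Tead3*, on chromosome 17 from 28331673 to 28350805, was at 6.94 and 6.93 FPKM. The log2 changes of *Tead1* and *Tead3* were 0.23 and 0.00, and the sign of the latter turned with the scaling. The other family gene, *Tead4*, was listed at 0 in Lgr5+ cells and had an FPKM of 1.298 in Lgr6+ cells. A value of 0 can be a failed estimate. Of the 1266 genes with an FPKM from 1 to 2 in Lgr6+ cells, 18.8% were listed at 0 in Lgr5+ cells, against 6.39% in the opposite case.

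The TEAD genes summed to an FPKM of 125.5 in Lgr5+ cells and 48.1 in Lgr6+ cells. *Tead2* made up 89.5% of the sum in Lgr5+ cells and 67.1% in Lgr6+ cells. The share of *Tead1* was 5.02% and 15.8%, and that of *Tead3* was 5.53% and 14.4%. The gap between the sums came almost wholly from *Tead2*, since the FPKM of *Tead1* and *Tead3* differed by less than 1.5 between the populations.

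**Figure D2:**
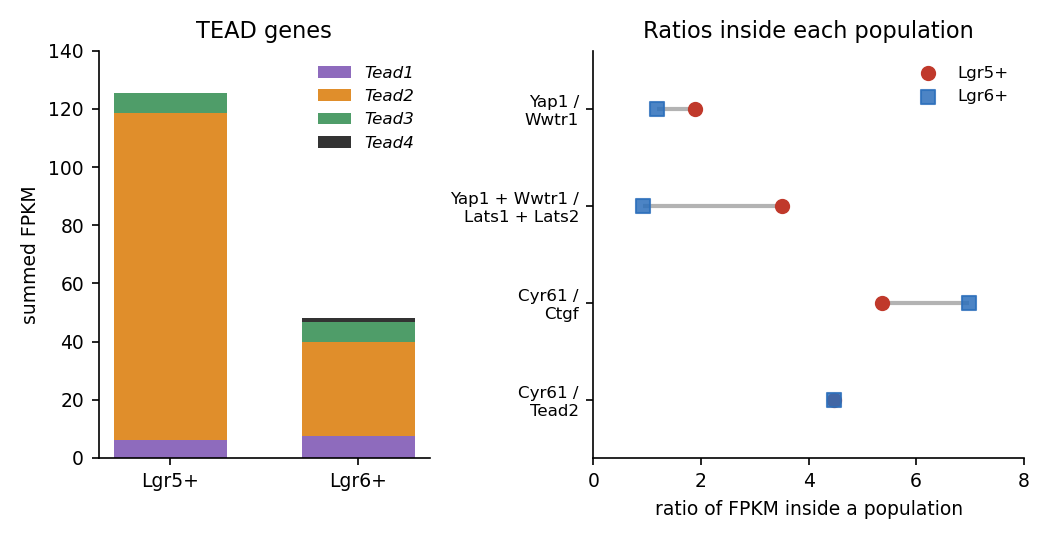
Left, summed FPKM of the TEAD genes in each population, stacked by gene, with *Tead2* at 112 of 125.5 in Lgr5+ cells and at 32.2 of 48.1 in Lgr6+ cells. Right, ratios of FPKM inside each population (red circles Lgr5+, blue squares Lgr6+), in which the coactivator sum over the LATS sum is 3.50 and 0.928 while *Cyr61* over *Tead2* is 4.48 in both. *Ctgf* over *Tead2*, which is not drawn, is 0.834 and 0.641. There is 1 combined value per population and there are no error bars.

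*Ctgf*, *Cyr61* and *Amotl2* are among the targets most often used to read YAP and TEAD activity. The matricellular proteins CTGF and CYR61 are secreted, and AMOTL2 is an angiomotin that binds YAP at cell junctions and restrains it. *Ctgf*, on chromosome 10 from 24595442 to 24598682, measured 93.7 FPKM in Lgr5+ cells and 20.7 FPKM in Lgr6+ cells. This ratio of 4.53 and log2 change of -2.13 was the largest difference among the 10 members. *Cyr61*, on chromosome 3 from 145646971 to 145649985, measured 502 FPKM in Lgr5+ cells against 144 FPKM in Lgr6+ cells, a ratio of 3.48 and a log2 change of -1.79. It was the most abundant member in both, above 98.1% of kept genes in Lgr5+ cells and above 94.8% in Lgr6+ cells. *Amotl2*, on chromosome 9 from 102717804 to 102733417, measured 22.3 FPKM in Lgr5+ cells against 8.76 FPKM in Lgr6+ cells, a ratio of 2.55 and a log2 change of -1.26. These 3 targets thus had the higher value in Lgr5+ cells, in the same direction as *Yap1* and *Tead2* and opposite to *Lats1* and *Lats2*. *Lats2*, also known as a target, had the higher value in Lgr6+ cells.

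Among the 1915 kept genes with a mean FPKM above 50, 10 were at least as far toward Lgr5+ cells as *Ctgf*, or 0.522%, and 21 as far as *Cyr61*, or 1.097%. Among those with a mean FPKM of 10 to 50, 5.67% were at least as far as *Amotl2*. *Cyr61* stood at 4.48 times the FPKM of *Tead2* in each population, whereas *Ctgf* stood at 0.834 times it in Lgr5+ cells and 0.641 times in Lgr6+ cells. Likeness between genes cannot be measured from 1 combined value per population. *Cyr61* was 5.36 times *Ctgf* in Lgr5+ cells and 6.99 times in Lgr6+ cells. The related angiomotin genes *Amot* and *Amotl1* differed less between the populations, with an FPKM of 3.51 and 3.62 for *Amot* and of 8.17 and 6.27 for *Amotl1* in Lgr5+ and Lgr6+ cells. The ratio of *Amotl2* to their sum was 1.91 in Lgr5+ cells and 0.885 in Lgr6+ cells.

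**Figure D3:**
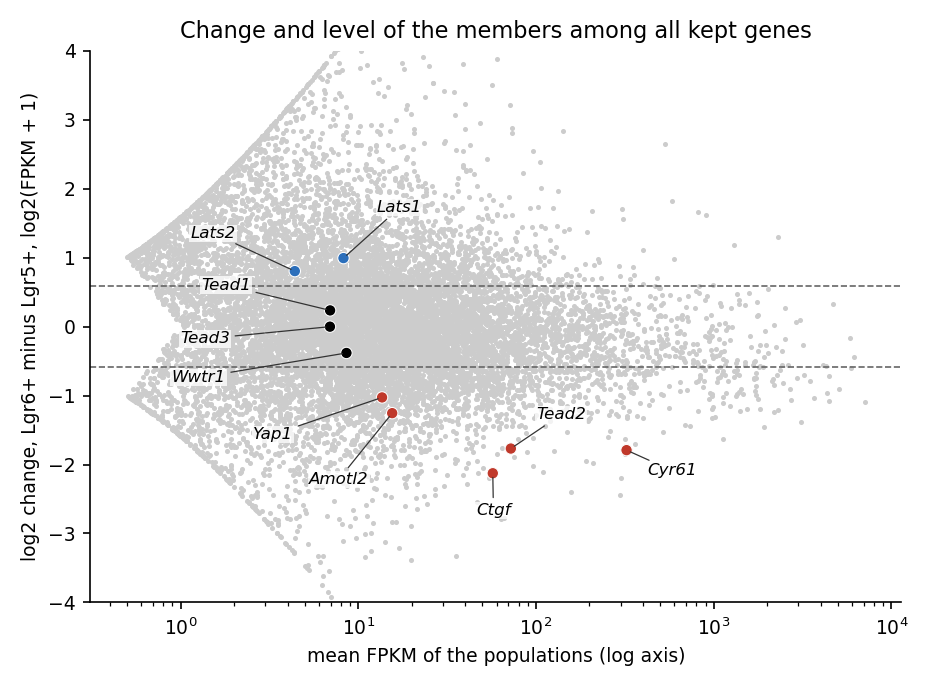
Log2 change between the populations (y axis, Lgr6+ minus Lgr5+ on the log2(FPKM + 1) scale) against the mean FPKM (x axis, log scale) for all kept genes in grey and for the members (red at least 1.5-fold higher in Lgr5+, blue at least 1.5-fold higher in Lgr6+, black neither). Dashed lines mark 1.5-fold, and 51 kept genes beyond a log2 change of 4 lie outside the drawn range. *Ctgf*, *Cyr61* and *Tead2* lie at the lower edge of the genes at their level, whereas *Lats1* and *Lats2* lie within the cloud.

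The promoter sequences of *Cyr61*, *Amotl2* and *Tead2*, each at least 2-fold higher in Lgr5+ cells, are shown because TEAD factors bind DNA at the MCAT element, whose core reads CATTCC, or GGAATG on the other strand. RefSeq entries for GRCm38.p6 were matched for 8 of the 10 members, and *Tead1* and *Ctgf* had no entry. The 250 bases before each start site were searched on both strands. The core is printed in capitals and all other bases in lower case, from 5′ to 3′ on the strand of the gene. The targets *Cyr61* at chr3:145649986-145650235 on the minus strand and *Amotl2* at chr9:102717554-102717803 on the plus strand each held 1 core, and *Tead2* at chr7:45215542-45215791 on the plus strand held none. The last bases of the *Tead2* window lie inside the gene as placed above, since the RefSeq start site used lies further along.
Cyr61: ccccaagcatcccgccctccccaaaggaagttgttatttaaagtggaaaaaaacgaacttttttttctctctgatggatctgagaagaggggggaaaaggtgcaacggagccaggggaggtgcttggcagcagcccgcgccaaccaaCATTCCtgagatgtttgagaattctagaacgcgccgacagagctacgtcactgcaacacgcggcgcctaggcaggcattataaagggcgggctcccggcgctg
Amotl2: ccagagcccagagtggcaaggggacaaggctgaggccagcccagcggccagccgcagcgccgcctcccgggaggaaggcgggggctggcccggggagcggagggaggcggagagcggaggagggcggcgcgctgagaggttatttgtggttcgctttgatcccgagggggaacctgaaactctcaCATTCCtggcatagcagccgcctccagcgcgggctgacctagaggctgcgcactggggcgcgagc
Tead2: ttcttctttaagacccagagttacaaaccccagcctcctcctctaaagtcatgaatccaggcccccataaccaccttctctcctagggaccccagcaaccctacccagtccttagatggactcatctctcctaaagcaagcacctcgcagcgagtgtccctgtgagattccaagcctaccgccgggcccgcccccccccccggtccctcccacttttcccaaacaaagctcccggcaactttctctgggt

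The core began 103 bases before the start site of *Cyr61* and 65 bases before that of *Amotl2*, and in both it was read as CATTCC on the strand of the gene. The *Cyr61* window also held TATAAA 25 bases before the start. Of the members with an entry, 5 had the core in at least 1 window, namely *Cyr61*, *Amotl2*, *Yap1*, *Wwtr1* and *Tead3*, and it was found in 7 of the 12 windows of all 8 members. Among 32536 different windows of all genes, 12.6% held the core. This share is per window, and no share per gene was calculated to stand beside the 5 members. Windows of 1 gene can overlap each other, and those of *Wwtr1* hold the same copy, 136 and 170 bases before their start sites. No window of a member held TGACTCA, the AP-1 element, or a CArG box, the binding element of SRF, against 4.45% and 1.48% of all windows. *Wwtr1* and *Tead3*, which differed by under 1.5-fold, held the core as *Cyr61* and *Amotl2* did, and *Tead2* had none in this window. A match in a window is a description of the letters and not evidence of binding.

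Beyond the members, the wider pathway was read from lists fixed by name. The kinase cascade list holds 21 genes, all kept. In Lgr6+ cells 6 of them were higher by 1.5-fold or more, which is close to the 28.5% of all kept genes. None was at least 1.5-fold higher in Lgr5+ cells, against 23.3% of all kept genes, and the median log2 change was 0.04. After quantile normalization 6 were higher in Lgr6+ and 2 in Lgr5+ cells, and after scaling to the same sum these numbers were 10 and 0. The largest difference was that of *Nf2*, which encodes the scaffold Merlin that recruits LATS to the membrane, with an FPKM of 7.34 in Lgr5+ cells and 32.2 in Lgr6+ cells. *Stk38*, a kinase related to LATS, was at the other end, with 40.4 and 27.4, under 1.5-fold, and was the most abundant of the list by the mean of both populations. Of the core components named next, after their values were seen, only *Sav1* had the higher value in Lgr5+ cells. On the log2(FPKM + 1) scale *Sav1*, *Stk4* and *Mob1a* were under 1.5-fold. *Stk3* had an FPKM of 12.04 in Lgr5+ and 23.4 in Lgr6+ cells, and *Stk4* had 11.2 and 15.4. *Sav1*, the adaptor of these kinases, had 12.8 and 10.2. *Mob1a*, a LATS cofactor, had 3.09 and 5.06, and *Mob1b* had 0.704 and 2.52.

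Of the surface and junction regulators, 17 of 18 were in the table and 13 were kept. Of the 13, 5 were at least 1.5-fold higher in Lgr5+ cells and 0 in Lgr6+ cells, against 23.3% and 28.5% of all kept genes, and the median log2 change was -0.33. The numbers were 4 and 1 after scaling to the same sum. *Wtip*, a LIM protein of the Ajuba family that restrains LATS, had the largest difference, with an FPKM of 47.0 in Lgr5+ cells and 12.3 in Lgr6+ cells. *Ajuba* itself had 4.398 and 2.57. *Fat1*, an atypical cadherin, was at the other end with 6.53 and 10.03, and *Crb3*, a polarity protein of the apical membrane, was the most abundant with 54.0 and 45.4. *Vgll4*, whose product competes with YAP1 for TEAD, measured 45.2 FPKM in Lgr5+ cells against 21.8 FPKM in Lgr6+ cells, a log2 change of -1.02. The other *Vgll* genes were below an FPKM of 1 in both populations.

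A published signature of 22 YAP/TAZ targets from tumours, written with mouse symbols, was all in the table and 20 genes were kept. Of these, 10 were at least 1.5-fold higher in Lgr5+ cells and 4 in Lgr6+ cells, against 23.3% and 28.5% of all kept genes, with a median log2 change of -0.59. The signature includes *Ctgf*, *Cyr61*, *Amotl2* and *Lats2*. Without them, 7 of 16 were higher in Lgr5+ cells and 3 in Lgr6+ cells, and the median was -0.41. *Fjx1* and *Ptpn14*, both counted as higher in Lgr5+ cells, are also among the surface and junction regulators, so these lists share genes. After scaling to the same sum, 7 of the 20 were higher in Lgr5+ and 5 in Lgr6+ cells, against 16.3% and 36.9% of all kept genes. *Nuak2*, a kinase, lay farthest toward Lgr6+ cells, with an FPKM of 3.45 there, and was listed at 0 in Lgr5+ cells. *Ankrd1*, a target often used beside *Ctgf* and *Cyr61*, was listed at 0 in both populations. Among the CCN family, to which *Ctgf* and *Cyr61* belong, *Wisp1* had an FPKM of 9.07 in Lgr5+ and 4.72 in Lgr6+ cells and *Nov* had 2.28 and 6.32. *Wisp2* and *Wisp3* were listed at 0 in both.

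**Figure D4:**
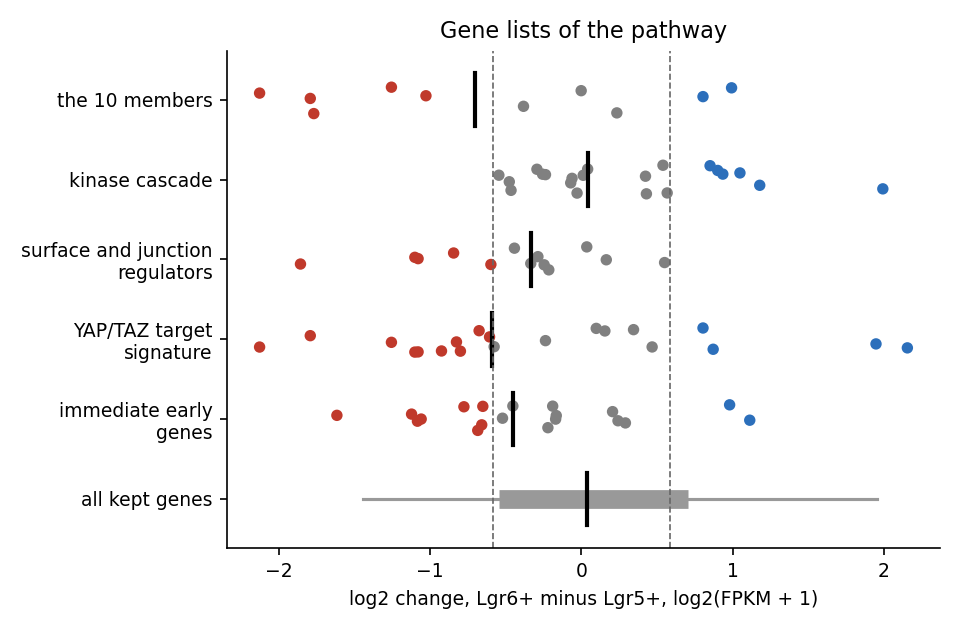
Log2 change between the populations for the kept genes of each list (x axis, Lgr6+ minus Lgr5+ on the log2(FPKM + 1) scale), 1 point per gene, red at least 1.5-fold higher in Lgr5+, blue at least 1.5-fold higher in Lgr6+, grey neither, with the median as a black bar. For all kept genes the grey box runs from percentile 25 to 75, from -0.54 to 0.71, and the line from percentile 5 to 95, from -1.44 to 1.95. The kinase cascade has its larger differences on the Lgr6+ side, and the target signature has points on both sides with a median of -0.59.

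*Cyr61* is itself an immediate early gene, a class that is induced within minutes by serum or tissue dissociation. Of 20 other immediate early genes 19 were kept, of which 8 were at least 1.5-fold higher in Lgr5+ cells and 2 in Lgr6+ cells, against 23.3% and 28.5% of all kept genes, with a median log2 change of -0.45. *Egr2* had the largest difference toward Lgr5+ cells, with an FPKM of 62.5 and 19.7, and *Myc* the largest toward Lgr6+ cells, with 0.0740 and 1.32. *Ier2* was the most abundant, with 778 and 568. The part of this group in the values of *Cyr61* and *Ctgf* was not tested. After scaling to the same sum the numbers were 4 and 2, against 16.3% and 36.9% of all kept genes, and the median was -0.19.

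Of the 10 supporting cell markers given above, 3 were higher in Lgr5+ cells, which is close to the share of all kept genes. *Ctgf*, *Cyr61* and *Amotl2* were also higher there. The other 7 supporting cell markers were under 1.5-fold, and 2 of the 10 had a positive log2 change. Endothelial, macrophage and glial markers were mostly higher in Lgr6+ cells, opposite to *Ctgf*, *Cyr61* and *Amotl2*. The counts of markers stand against 28.5% of all kept genes higher in Lgr6+ cells and 23.3% higher in Lgr5+ cells. In sorted bulk cells, fewer cells of a type and less RNA per cell cannot be told apart. The summed FPKM of 10 endothelial markers was 34.5 in Lgr5+ and 179 in Lgr6+ cells, 9 of them at least 1.5-fold higher in Lgr6+ cells, and *Kdr* was listed at 0 in Lgr5+ cells. That of 10 macrophage markers was 3.98 and 272, with all 9 kept markers higher in Lgr6+ cells and *C1qb*, *C1qc*, *Tyrobp*, *Csf1r* and *Aif1* listed at 0 in Lgr5+ cells. The sum over 10 glial markers was 536 and 1681, of which *Fabp7* alone made up 446 and 1370. Of the 8 kept glial markers, 6 were higher in Lgr6+ cells, and *Foxd3* was listed at 0 there. The sum over 10 mesenchymal markers was 336 and 599, of which *Otos* alone made up 5.60 and 248. Of these markers, 4 were higher in Lgr6+ and 1 in Lgr5+ cells. The sum over 10 neuronal markers was 128 and 146, with 3 higher on each side, close to the shares of all kept genes. *Prph* was listed at 0 in Lgr5+ cells. The part of all these cell types, supporting cells and hair cells included, in the values of *Lats1*, *Lats2*, *Nf2* and the other genes above was not tested.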

How the data were processed

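RNA of sorted Lgr5+ and Lgr6+ progenitors was amplified by the authors with a SMART-Seq v4 kit for low input, and both ends of each fragment were sequenced. Trimmomatic served for trimming, TopHat for mapping, RefGene for annotation and Cufflinks for the deposited FPKM, per the labels and the methods, and their versions are not given in the sources used here. Each deposited FPKM value joins the replicates of a population in 1 number and was normalized by the authors for transcript length and for mapped fragments. The deposited table also holds the fold change, *p*-value and *q*-value of the authors' own comparison, and these 3 columns were not used. The labels name mm10 and the paper names mm9. Of 19655 gene symbols, the deposited interval overlapped the gene in GRCm38.p6 for 99.1% and in NCBIM37 for 12.8%, so positions are given as GRCm38, counted from 1.

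Differences were calculated on the log2(FPKM + 1) scale, for genes that reached an FPKM of 1 in either population, and a threshold of 1.5-fold without a *p*-value. No test was possible with 1 value per population. The members and gene lists were chosen with earlier results of these data known. Besides the members, the genes named from the pathway lists were those at either end of the range of each list, the most abundant gene, *Tead4* and the CCN family. For the cell type lists this rule was not applied, and the markers named from them, other pathway genes and the groups by mean FPKM were chosen after their values were seen. Low FPKM values were multiplied by transcript length less 200 bases for 7148 genes with 1 transcript, and the most frequent value was read as a step. Python 3.11.15, numpy 2.4.6, pandas 2.3.3 and matplotlib 3.10.9 were used, and the scripts were tested on simulated data.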

Additional observations from a re-analysis of the deposited data

How the results depend on the processing

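No paired analysis was possible because the deposited table holds 1 combined value per population, and for the same reason no replicate could be left out. The 10 members kept their direction and their side of the 1.5-fold threshold under a pseudocount of 0.1, no pseudocount, quantile normalization, the same upper quartile and the same sum of FPKM, except that *Tead3*, which was below the threshold throughout, ran from -0.14 to 0.23. The log2 change ran from -2.18 to -1.87 for *Ctgf*, from -1.80 to -1.53 for *Cyr61*, from -1.80 to -1.51 for *Tead2*, from -1.35 to -1.01 for *Amotl2*, from -1.11 to -0.78 for *Yap1*, from 0.88 to 1.23 for *Lats1* and from 0.59 to 1.02 for *Lats2*, whose lower end is at the threshold. With the same sum of FPKM the median of the members was -0.46. At 2-fold on the log2(FPKM + 1) scale of the deposited values, 0 members were higher in Lgr6+ progenitors, whereas *Lats1* passed 2-fold with a pseudocount of 0.1, at 1.11, and *Lats1* and *Lats2* did without a pseudocount, at 1.13 and 1.00, and with the same sum of FPKM, at 1.23 and 1.02. Toward Lgr5+ progenitors, *Yap1* fell short of 2-fold with the same sum of FPKM, at -0.78. *Ctgf*, *Cyr61*, *Tead2* and *Amotl2* stayed past 2-fold in each of these settings.

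Counts of list genes at least 1.5-fold apart in either direction moved by over 1.5 times in these cases. At 2-fold, the kinase cascade went from 6 to 3, the surface and junction regulators from 5 to 3, the target signature from 14 to 7 and the immediate early genes from 10 to 5. With the same sum of FPKM the kinase cascade had 10 and the immediate early genes 6. With a minimum FPKM of 5 in either population, the surface and junction regulators had 2. Of *Tead4* and *Vgll4*, 1 was left at that minimum, which *Tead4* does not reach, and 1 at a minimum FPKM of 1 in both populations and as a ratio without a pseudocount, since *Tead4* is listed at 0 in Lgr5+ progenitors. The depth of single samples and the spread between samples could not be read from the table, and they limit every value above. For the combined values, the steps of low FPKM gave only a depth ratio of 3.18, Lgr6+ over Lgr5+, if a step stands for 1 fragment.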
